A study of Homo sapiens with 4 samples.

Results

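The mitochondrial respiratory chain subunit genes described here are nuclear genes that encode the protein subunits of complexes I to V and cytochrome c. They were chosen by symbol alone: NDUFA, NDUFB, NDUFC, NDUFS and NDUFV for complex I (NDUFA4 and NDUFA4L2 are counted here with complex IV, where NDUFA4 is now placed), SDHA to SDHD for complex II, UQCR and CYC1 for complex III, COX4I, COX5, COX6, COX7 and COX8 for complex IV, ATP5 for complex V, and CYCS for cytochrome c. Assembly factors (NDUFAF) and pseudogenes were left out, as were the read-through genes ATP5MF-PTCD1 and NDUFC2-KCTD14. Through the accession of each probe, 89 of the 19483 genes named on the array met the rule, measured by 111 of 34127 probes. A further gene of the RefSeq table, UQCRHL, had no probe. The rule itself uses no measured value.

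The arrays came from HuCCT1, an established line of human intrahepatic cholangiocarcinoma, a cancer of the bile duct. Separate cultures received siGRB2, an siRNA against the adaptor gene GRB2, or siControl, a nonsilencing siRNA used as negative control, or miR-376c, given as the synthetic mimic Pre-miR-376c, or miControl, the Pre-miR negative control. Each reagent was used at 30 nM, and every culture, controls included, was moved 24 hours later to 0.1% serum with 5 ng/ml epidermal growth factor (EGF) for 24 hours. There was 1 array of total RNA per reagent, so a difference between arrays compares 2 cultures, has no error from replicates and was given no test. Levels are log2 processed signals minus the 75th percentile of the same array, and a difference is taken between arrays for the same probe, never between probes. In the plots miControl is labelled Pre-miR control, siControl siRNA control and miR-376c Pre-miR-376c.

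The mimic carries the mature miR-376c-3p, shown here because it is the reagent whose effect on these genes was measured (RefSeq, GRCh38.p14, chr14:101039732-101039752, plus strand, 21 bases, with the seed, bases 2 to 8, in capitals).
hsa-miR-376c-3p: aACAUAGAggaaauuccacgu

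The respiratory chain sits in the inner mitochondrial membrane. Complex I takes electrons from NADH and complex II from succinate, complex III passes them to cytochrome c, complex IV hands them to oxygen, and ATP synthase, called complex V, uses the proton gradient that builds up to make ATP. Most subunits are encoded in the nucleus, and a small set in mitochondrial DNA, for which no probe was named here (0 of 13 genes). Because every cell needs the chain, its mRNAs are abundant in epithelial lines, while a few complex IV subunits have isoforms used mainly in muscle, lung, testis or under low oxygen.

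Some facts of the whole series bear on all values below. GRB2 was measured by 1 probe, with levels of 0.62 (miControl), 0.07 (miR-376c), -0.10 (siControl) and -0.65 (siGRB2): the siGRB2 array was the lowest, at -0.55 against siControl and -1.27 against miControl, and siControl was itself at -0.72 against miControl. The miR-376c array was also below miControl, at -0.55. The siControl array stood apart from the other 3. Differences over all 21239 probes detected on every array had an SD of 0.58 for siGRB2 minus siControl and 0.57 for siControl minus miControl, against 0.36 for miR-376c minus miControl and 0.31 for siGRB2 minus miControl. Its difference also moved with brightness: for siGRB2 minus siControl the median was 0.15 over all detected probes and -0.04 over the 6718 probes above the 75th percentile on every array. The main siGRB2 results are therefore given against both controls. Biliary markers were detected on all arrays for 6 of 6 genes, KRT7 and KRT19 at levels of 7.65 or more on every array. Summed over a list and divided by the 75th percentile, their signal was 499 to 665. Hepatocyte markers were detected on all arrays for 2 of 8 genes (summed signal 3.55 to 4.93), immune markers for 4 of 5 (1.49 to 2.21), fibroblast markers for 2 of 6 (0.216 to 0.334), endothelial markers for 2 of 5 (0.209 to 0.302) and muscle markers for 3 of 6 (0.358 to 0.534). The part of these signals in the results was not tested.

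The respiratory chain was broadly detected. Of the 111 probes, 104, for 83 genes, were well above background on all 4 arrays, and 96 of these were above the 75th percentile on every array. By complex, a probe detected on all arrays was found for 37 of 37 genes of complex I, 4 of 4 of complex II, 9 of 9 of complex III, 14 of 19 of complex IV, 18 of 19 of complex V and for CYCS. The scanner software gives a single-spot difference an error of about 0.20 log2. The members spotted several times had a smaller spread between spots of 1 array: the SD was 0.022 to 0.046 for NDUFS5, 0.048 to 0.056 for COX7C, 0.030 to 0.053 for UQCRC2 and 0.039 to 0.057 for NDUFS6, over 8 to 10 spots. Neither covers the spread between cultures.

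With miR-376c the chain differed little from miControl. The median difference of the 104 probes was -0.02, beside -0.03 for all detected probes and 0.02 for the bright ones, and 45 probes were above 0 and 59 below. The lowest value was -0.50 and the highest 0.64. A single probe, 0.96% of the 104, was at least 1.5-fold apart (NDUFA6), beside 8.92% of all detected probes and 3.44% of bright ones, and no member was 2-fold apart, beside 1.33%. The SD over members was 0.19, beside 0.36 over all probes. The gap in the 1.5-fold share depended on the scaling of the arrays. It was 0.96% of members beside 2.29% of all detected probes with normexp, and 2.88% beside 8.88% with a median shift. In bulk RNA, fewer cells of a kind and less RNA per cell cannot be told apart.

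For siGRB2 the answer depended on the control. Against siControl the median was -0.15, a difference of -0.31 from the median of all probes (0.15) and of -0.11 from that of the bright probes (-0.04). Relative to all probes it was -0.066 with quantile normalization and -0.037 with normexp. Here 23 of 104 probes (22.1%) were at least 1.5-fold apart, 10 higher and 13 lower, beside 32.1% of all and 23.4% of bright probes, and 5 were 2-fold apart, beside 8.23%. Against miControl the median was 0.05, beside 0.04 for all probes, and 2 probes (1.92%) were at least 1.5-fold apart, beside 5.81% of all and 2.05% of bright probes. A single probe, of COX6B2, was 2-fold apart, beside 1.09%. With normexp the share past 1.5-fold against miControl was 0.96% of members, beside 1.60% of all detected probes. Of the 23 probes called against siControl, 21 lay within 1.5-fold against miControl, between -0.23 and 1.26 with the exceptions included, and 7 had the opposite sign. These comparisons share the siGRB2 array. The split of 10 higher and 13 lower also moved with the scaling of the arrays: it was 3 and 31 with a median shift, 15 and 5 with quantile normalization, 13 and 6 with normexp, 12 and 11 with a percentile over detected probes, and 10 and 16 in the deposited values. The contrast with all detected probes moved as well. Members past 1.5-fold were 32.7% beside 31.3% with a median shift and 18.3% beside 13.4% with normexp, so they were not fewer there. Their share stayed lower with quantile normalization (19.2% beside 26.98%) and with a percentile over detected probes (22.1% beside 32.8%). It was also lower in the deposited values (25.0% beside 30.7%). Of the 23 probes, 8 were past 1.5-fold in all 6 scalings (NDUFA8, NDUFB1, NDUFB5, NDUFB11, COX5A, COX6B2, COX6C and ATP5F1D), none changed sign, and no member was past 2-fold in all 6. The counts of 21, 7 and 8 probes were not made over all detected probes, so they cannot be read as particular to the chain.

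**Figure D1:**
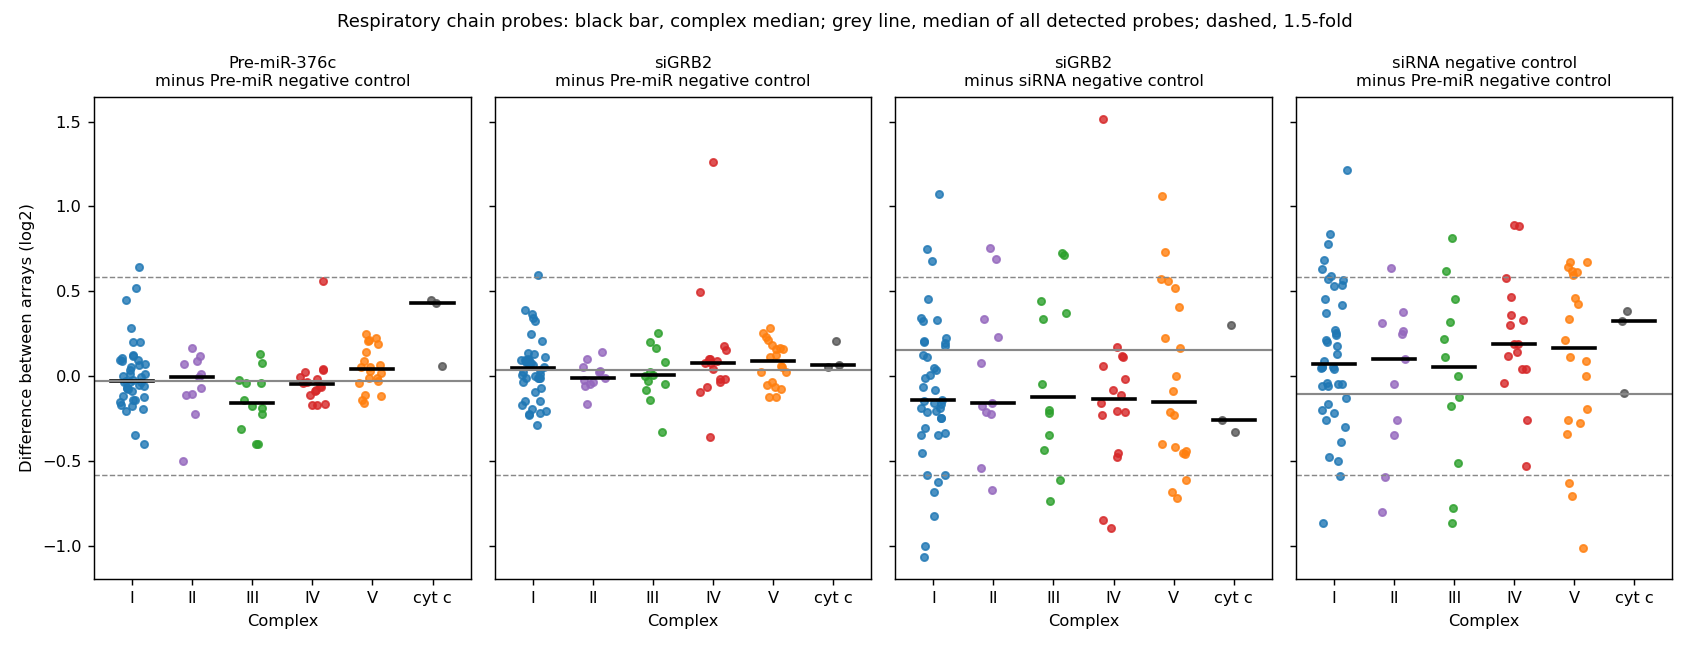
Each point is a respiratory chain probe detected on all 4 arrays, grouped by complex (x axis), and the y axis is the log2 difference between the arrays named above each panel. Black bars are complex medians, the grey line is the median of all 21239 detected probes and dashed lines mark 1.5-fold; the points are tight in the panels for miR-376c minus miControl and siGRB2 minus miControl and spread in both panels that involve siControl.

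The remaining pairs of arrays had the same split. Members at least 1.5-fold apart numbered 22 (21.2%) for miR-376c minus siControl, beside 26.1% of all and 20.0% of bright probes, and 26 (25.0%) for siControl minus miControl, beside 28.6% and 20.8%. For siGRB2 minus miR-376c, where siControl takes no part, there was 1, again COX6B2, beside 6.31% and 2.28%. With normexp there was also 1 in that pair, beside 1.64% of all detected probes. Members 2-fold apart numbered 2, 2 and 1 in these pairs, beside 5.87%, 7.76% and 1.19% of all probes. The siControl array was the highest or the lowest of the 4 for 88 of 104 members, beside 75.4% of all and 76.1% of bright probes. It was highest for 57 members (54.8%) and lowest for 31 (29.8%), where over all probes it was highest for 29.6% and lowest for 45.8%, and over bright probes for 44.1% and 32.0%. These places were counted in the main scaling only, and the direction moved with the scaling. For siControl minus miControl, members past 1.5-fold were 17 higher and 9 lower in the main scaling and 36 and 3 with a median shift. They were 5 higher and 12 lower with quantile normalization, and 5 and 10 with normexp. In this pair members past 1.5-fold were 37.5% beside 30.95% of all probes with a median shift and 14.4% beside 12.01% with normexp. They were 16.3% beside 25.3% with quantile normalization, 18.3% beside 29.97% with a percentile over detected probes and 26.9% beside 28.1% as deposited. For miR-376c minus siControl these shares, in this order, were 30.8% beside 25.8%, 15.4% beside 10.5%, 18.3% beside 22.9%, 17.3% beside 27.4% and 24.04% beside 25.7%.

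**Figure D2:**
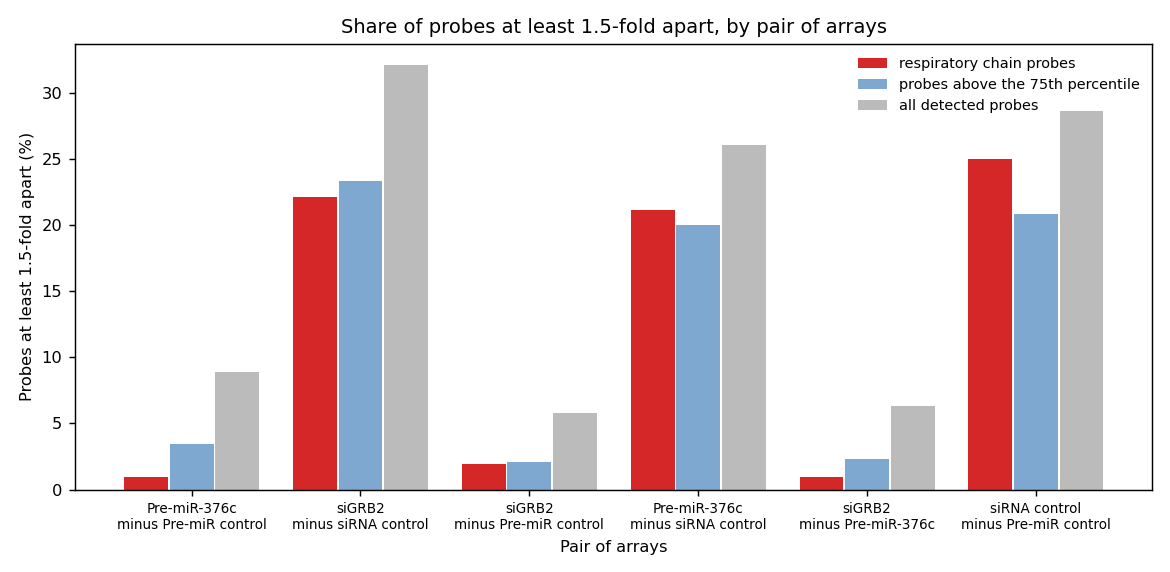
Bars give the percentage of probes at least 1.5-fold apart (y axis) for each pair of arrays (x axis), for the 104 respiratory chain probes, the 6718 probes above the 75th percentile and all 21239 detected probes. Respiratory chain bars are 0.96 to 1.92% in the 3 pairs without siControl and 21.2 to 25.0% in the 3 pairs with it.

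Without siControl, the members kept close together. The range over the miControl, miR-376c and siGRB2 arrays had a median of 0.17 over the 104 probes, beside 0.31 over all detected probes and 0.24 over bright ones, and was under 0.25 for 79 members (76.0%), beside 38.3% of all and 51.3% of bright probes. By complex the median range was 0.17 for complex I, 0.13 for complex II, 0.19 for complex III, 0.15 for complex IV, 0.18 for complex V and 0.43 for the 3 CYCS probes. The closeness was not particular to the chain. For miR-376c minus miControl, siGRB2 minus miControl and siGRB2 minus miR-376c, the members had an SD of 0.19, 0.20 and 0.21. Cytosolic ribosomal proteins had 0.21, 0.18 and 0.15, proteasome subunits 0.25, 0.15 and 0.19, and mitochondrial ribosomal proteins 0.19, 0.19 and 0.17. Both treated arrays were above both controls for 15 members (14.4%), beside 21.3% of all and 19.8% of bright probes. They were below both for 18 (17.3%), beside 13.6% and 16.4%. The widest such gap was 0.29, for NDUFS8.

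**Figure D3:**
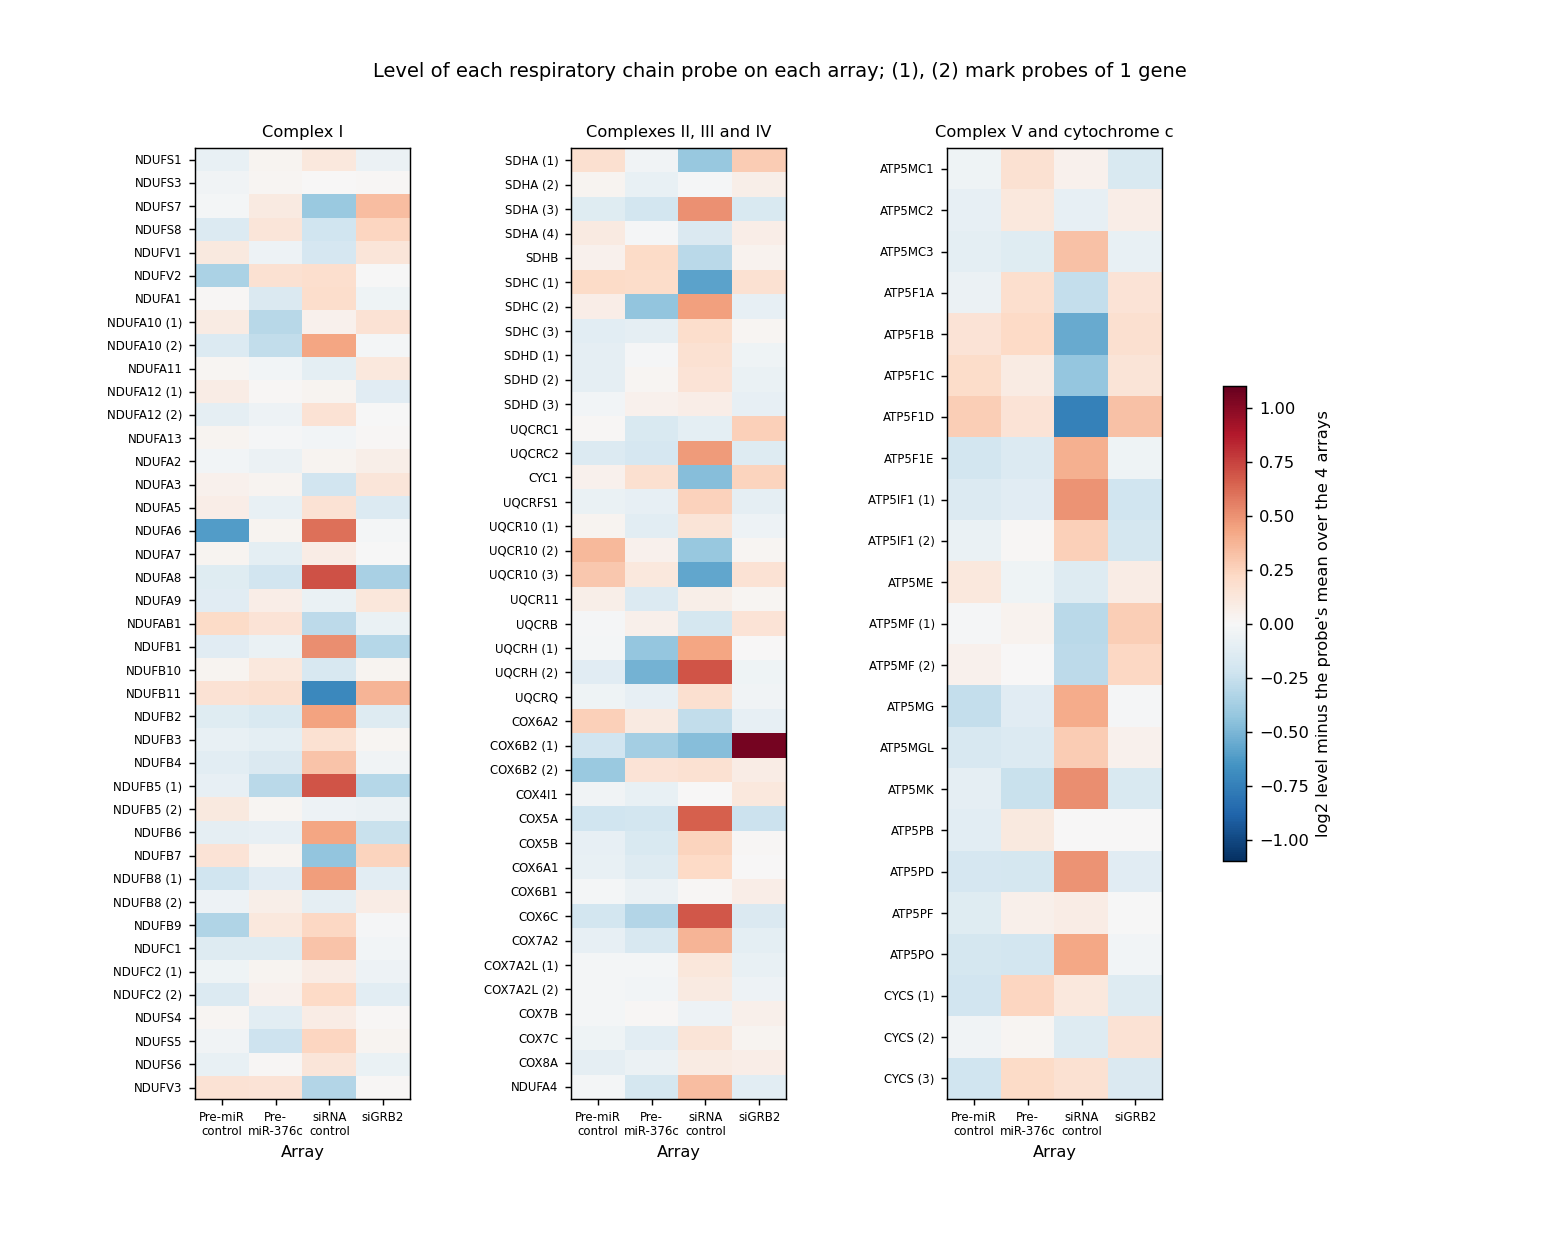
Each row is a respiratory chain probe detected on all 4 arrays (1 probe is not shown) and each column an array, and the colour is the log2 level minus that probe's mean over the 4 arrays, on a scale of -1.1 to 1.1 (numbers in brackets mark probes of 1 gene). The siControl column is the most coloured in all 3 panels, with both directions inside each complex, and the strongest single cell elsewhere is 1 probe of COX6B2 with siGRB2.

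Complex I was measured by 42 probes. Its core subunits carry the flavin and the iron-sulfur clusters that move electrons, and the supernumerary subunits stabilise the structure. With miR-376c the 7 core subunit probes had a median of 0.11 and the 35 supernumerary ones -0.03. The highest was NDUFA6, a LYR-motif accessory subunit that binds the acyl carrier protein NDUFAB1. Its levels were 1.92 (miControl), 2.56 (miR-376c), 3.14 (siControl) and 2.52 (siGRB2). The controls were the extremes, with both treated arrays between them, so miR-376c was 0.64 above miControl and 0.57 below siControl (a difference of -0.57), and siGRB2 was 0.60 above miControl and -0.62 against siControl. Over the 6 scalings the first value stayed past 1.5-fold, from 0.59 to 0.76, and siGRB2 minus miControl ran from 0.55 to 0.60, past it in 3 of 6. The next highest with miR-376c were the core subunit NDUFV2 (0.52) and NDUFB9 (0.45), both within 1.5-fold, and the lowest was 1 of the 2 probes of NDUFA10 (-0.40; the other gave -0.12).

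Against siControl, 8 of 42 complex I probes (19.0%) were past 1.5-fold with siGRB2, beside 32.1% of all detected and 23.4% of bright probes. NDUFA8, a twin-CX9C subunit of the intermembrane space, had levels of 4.50 (miControl), 4.42 (miR-376c), 5.33 (siControl) and 4.27 (siGRB2), so siGRB2 was -1.06 against siControl and -0.23 against miControl. NDUFB11, a membrane arm subunit, had 4.53, 4.54, 3.66 and 4.74 in the same order, so siGRB2 was 1.07 against siControl and 0.21 against miControl. In both genes 3 arrays lay together and siControl lay on its own, high for NDUFA8 and low for NDUFB11. One probe of NDUFB5 gave -1.00 and the other -0.01. The others were NDUFB1 (-0.82), NDUFB6 (-0.68), NDUFA6, NDUFB7 (0.68) and the core subunit NDUFS7 (0.75), which carries the last iron-sulfur cluster before ubiquinone. Against miControl the siGRB2 extremes of the complex were NDUFA6 (0.60) and NDUFAB1 (-0.29), with NDUFS8 at 0.39 and NDUFS7 at 0.36.

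Complex II, which is also the succinate dehydrogenase of the citrate cycle, has 4 nuclear genes and none in mitochondrial DNA. With miR-376c its 11 probes had a median of -0.01, from -0.50 for 1 probe of SDHC to 0.16 for SDHB, the iron-sulfur subunit. Of these probes 0 were past 1.5-fold, beside 8.92% of all detected probes. SDHB had levels of 1.95 (miControl), 2.11 (miR-376c), 1.60 (siControl) and 1.94 (siGRB2). The 3 probes of SDHD, a membrane anchor, gave 0.07 to 0.12 with miR-376c and -0.22 to -0.16 for siGRB2 minus siControl. The probes of the other membrane anchor, SDHC, gave -0.50, -0.01 and 0.02 with miR-376c. SDHA, the flavoprotein, had 4 probes, at -0.22 to -0.07 with miR-376c. For siGRB2 minus siControl these 4 probes ran from -0.67 to 0.69 and the 3 of SDHC from -0.54 to 0.75, so neither gene had a single direction there. Against miControl all 11 probes lay between -0.16 and 0.14.

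Complex III had the lowest median of the complexes with miR-376c, -0.16 over 12 probes, and none past 1.5-fold, beside 8.92% of all detected probes. Of the 12 probes, 10 were below 0, beside 53.6% of all detected probes. The lowest was UQCRH, the hinge subunit that helps cytochrome c to dock. Its 2 probes read 5.60 and 5.63 with miControl, 5.20 and 5.23 with miR-376c, 6.06 and 6.45 with siControl and 5.63 and 5.71 with siGRB2, and both gave -0.40 for miR-376c minus miControl. On both probes miR-376c was the lowest array and siControl the highest. UQCRH has a near-identical copy, UQCRHL, so the source of this signal is uncertain. The small subunits as a group, 8 probes, had a median of -0.20 with miR-376c, which stayed between -0.23 and -0.09 over the 6 scalings. CYC1, the cytochrome c1 haem protein, was the highest at 0.13, with levels of 2.91 (miControl), 3.04 (miR-376c), 2.40 (siControl) and 3.11 (siGRB2). For siGRB2 minus siControl 4 of 12 probes were past 1.5-fold, beside 32.1% of all detected and 23.4% of bright probes. They were 1 of the 3 probes of UQCR10 (0.73), CYC1 (0.71), the core protein UQCRC2 (-0.61) and 1 of the probes of UQCRH (-0.73). Against miControl the extremes were UQCRC1 (0.25) and another UQCR10 probe (-0.33), and the median was 0.00. With 1 value per gene in place of 1 per probe, the miR-376c median of complex III relative to all probes was -0.018, beside -0.13 with 1 per probe.

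Complex IV, cytochrome c oxidase, passes electrons to oxygen. The 13 probes of its ubiquitous subunits lay close together where siControl took no part. They had an SD of 0.06 around a median of -0.04 with miR-376c and an SD of 0.08 around 0.08 for siGRB2 minus miControl, against 0.33 for siGRB2 minus siControl and 0.30 for siControl minus miControl. COX4I1, for example, had levels of 3.93 (miControl), 3.90 (miR-376c), 3.98 (siControl) and 4.09 (siGRB2), with no array far from the others. The siControl array was the highest of the 4 for 11 of 16 probes of the complex, beside 29.6% of all detected and 44.1% of bright probes. This was counted in the main scaling only. Over the 6 scalings the median of the 13 ubiquitous probes for siControl minus miControl ran from 0.03 to 0.46. The siControl array stood out most for COX5A, whose levels were 3.29, 3.31, 4.17 and 3.27 in the same order, and for COX6C, at 4.62, 4.51, 5.51 and 4.67. For siGRB2 minus siControl these were -0.90 and -0.85, and against miControl -0.01 and 0.04.

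The paralogs of complex IV separated by detection only in part, as COX6A2 and COX6B2 were detected on all 4 arrays. COX7A1 (a muscle form), COX7B2 and COX8C (forms known from testis) and NDUFA4L2 (a form known from low oxygen) were below background on all 4 arrays, and their ubiquitous partners COX7A2, COX7A2L, COX7B, COX8A and NDUFA4 were detected on all 4. COX7A2 was at -0.09 with miR-376c and -0.01 for siGRB2 minus miControl, COX7B at 0.03 and 0.08, COX8A at 0.04 and 0.18, and NDUFA4 at -0.17 and -0.09. The same genes, for siGRB2 minus siControl, gave -0.48 (COX7A2), 0.12 (COX7B), -0.01 (COX8A) and -0.45 (NDUFA4). COX4I2, a lung form, was detected on 3 arrays, at levels of -6.43 (miControl), -6.00 (miR-376c) and -5.22 (siGRB2), and was not well above background with siControl, which makes siGRB2 at least 2.14-fold and miR-376c at least 1.25-fold higher than siControl. COX6A2, the muscle partner of COX6A1, was detected on all arrays at -4.59, -4.75, -5.12 and -4.94, and was -0.16 with miR-376c, -0.36 for siGRB2 minus miControl and 0.17 for siGRB2 minus siControl. COX6A1 gave -0.06, 0.09 and -0.21. The muscle markers had a summed signal of 0.358 to 0.534, and their part in this value was not tested.

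COX6B2, a form of COX6B known from testis and some tumours, held the largest single difference of the chain, on 1 of 2 probes. Probe A_23_P78571 read -3.81 (miControl), -3.98 (miR-376c), -4.07 (siControl) and -2.55 (siGRB2), so the siGRB2 array was above the other 3, by 1.26 over miControl, 1.52 over siControl and 1.43 over miR-376c. Under normexp the first of these was 0.65, the lowest value of the 6 scalings. Probe A_33_P3378284 read 0.65, 1.22, 1.23 and 1.15, where miControl was the low array and the other 3 lay together, and it gave 0.49 for siGRB2 minus miControl and -0.08 for siGRB2 minus siControl. The probes did not give 1 pattern, and which transcript each one reads was not tested. The ubiquitous COX6B1 gave 0.10 for siGRB2 minus miControl and 0.06 against siControl.

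Complex V had a median of 0.04 over 20 probes with miR-376c, from -0.16 for ATP5ME to 0.25 for ATP5F1A, and of 0.09 for siGRB2 minus miControl, from -0.12 for ATP5IF1 to 0.28 for ATP5MF. None was past 1.5-fold in either, beside 8.92% and 5.81% of all detected probes. The 3 genes of the c-ring, which encode the same mature protein, gave 0.21 (ATP5MC1), 0.21 (ATP5MC2) and -0.03 (ATP5MC3) with miR-376c, -0.12, 0.17 and 0.02 for siGRB2 minus miControl, and -0.21, 0.17 and -0.40 for siGRB2 minus siControl. ATP5MJ, a small membrane subunit, was read on siControl (2.53) and siGRB2 (2.67) and carried an outlier flag on both Pre-miR arrays, so it has no difference there. ATP5MGL is a near-identical copy of ATP5MG, and its 0.03 with miR-376c is uncertain for that reason.

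Within ATP synthase the siControl array divided the subunits. Of the 5 genes of the catalytic head and central stalk, ATP5F1A, ATP5F1B, ATP5F1C and ATP5F1D were lower on siControl than on every other array. The same held for 45.8% of all detected and 32.0% of bright probes. ATP5F1D, the delta subunit, had levels of 2.71 (miControl), 2.60 (miR-376c), 1.70 (siControl) and 2.77 (siGRB2), and ATP5F1B, the catalytic beta subunit, had 3.88, 3.95, 3.17 and 3.91. For siControl minus miControl the 4 genes gave -1.01 (ATP5F1D), -0.71 (ATP5F1B), -0.63 (ATP5F1C) and -0.19 (ATP5F1A). ATP5F1E, the epsilon subunit of the same stalk, went the other way, at 0.60, as did the peripheral stalk genes ATP5PD (0.67), ATP5PO (0.61), ATP5PF (0.22) and ATP5PB (0.11), the inhibitor ATP5IF1 (0.64 and 0.33 on 2 probes) and the small membrane subunits ATP5MG (0.67) and ATP5MK (0.62). Among the small membrane subunits, ATP5ME (-0.26) and both probes of ATP5MF (-0.28 and -0.34) were lower on siControl. The c-ring genes gave 0.09 (ATP5MC1), 0.002 (ATP5MC2) and 0.42 (ATP5MC3). The roles were grouped after the values were seen. ATP5F1A to ATP5F1D were each read by 1 probe, and the value of ATP5F1A was within the scanner error of about 0.20. In this pair of arrays, probes of the same gene had both signs in 9 of 15 genes. Over the 6 scalings the median of the 2 catalytic head probes ran from -0.64 to -0.18, that of the 3 central stalk probes, ATP5F1E included, from -0.74 to -0.36, and that of the 4 peripheral stalk probes from 0.24 to 0.69. Against siControl, 5 of 20 probes of complex V were past 1.5-fold with siGRB2, beside 32.1% of all detected and 23.4% of bright probes. They were ATP5F1D (1.06), ATP5F1B (0.73), ATP5PD (-0.61), ATP5MK (-0.68) and ATP5IF1 (-0.72).

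**Figure D4:**
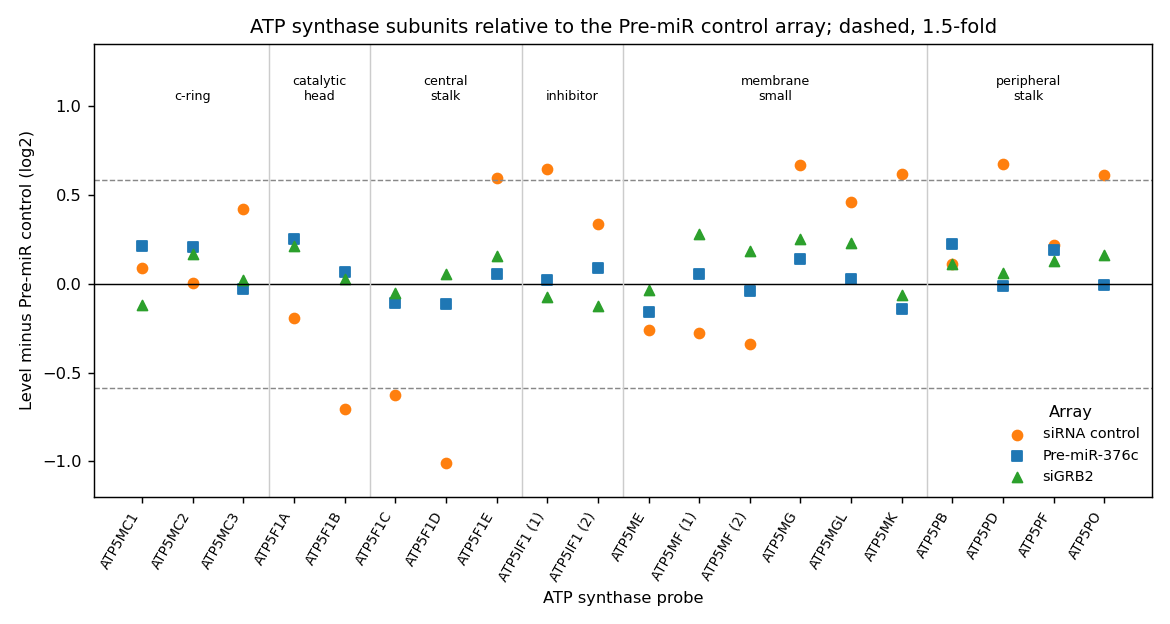
The y axis is the log2 level of each ATP synthase probe (x axis, grouped by the part of the enzyme) minus its level on the miControl array, for siControl (circles), miR-376c (squares) and siGRB2 (triangles). Squares and triangles lie between -0.16 and 0.28, while circles run from -1.01 for ATP5F1D to 0.67 for ATP5PD.

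Cytochrome c, the small carrier between complexes III and IV and a trigger of apoptosis once released, had 3 probes for CYCS. Probe A_24_P376556 read 1.96 (miControl), 2.41 (miR-376c), 2.28 (siControl) and 2.02 (siGRB2), and probe A_33_P3313401 read 2.35, 2.78, 2.74 and 2.41. On both, miR-376c and siControl were high and miControl and siGRB2 low, and miR-376c minus miControl was 0.45 and 0.43, within 1.5-fold. The third probe, A_32_P174083, read -2.79, -2.73, -2.89 and -2.58, and gave 0.06. Against siControl, miR-376c gave a median of 0.13 over the 3 probes.

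Genes with several probes show how far 1 probe can be trusted. For 15 genes with 2 or more detected probes, the spread between probes of a gene had a median of 0.12 for miR-376c minus miControl and of 0.10 for siGRB2 minus miControl, and of 0.57 for siGRB2 minus siControl and 0.48 for siControl minus miControl. The probes had both signs in 4, 5, 7 and 9 of the 15 genes in these pairs. The widest spreads for siGRB2 minus siControl were 1.60 (COX6B2), 1.36 (SDHA) and 1.30 (SDHC), and the probes of ATP5MF (0.56 and 0.52), NDUFA12 (-0.16 on both), COX7A2L and SDHD were close. The probe of UQCRB named A_33_P3299882 was below background on all arrays, and the other read 4.08, 4.15, 3.90 and 4.24.

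**Figure D5:**
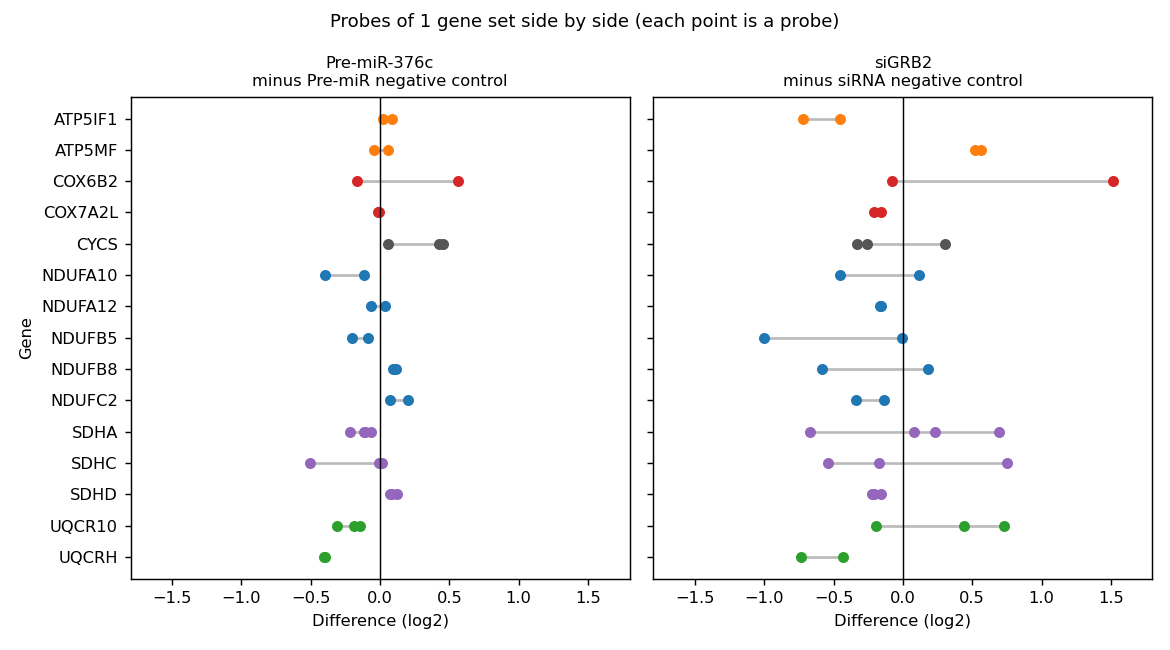
Each point is a probe of the gene on the y axis, the x axis is the log2 difference between the arrays named above each panel, a grey line joins the probes of 1 gene and the colours mark the complexes (complex I blue, II purple, III green, IV red, V orange, cytochrome c grey). Probes of a gene lie close for miR-376c minus miControl, COX6B2, SDHC and CYCS apart, and for siGRB2 minus siControl 7 of 15 genes have probes on both sides of 0.

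Genes that serve the chain were set beside it. With miR-376c the median was 0.02 for 59 probes of complex assembly factors, with 1 higher and 0 lower at 1.5-fold, and 0.16 for 18 probes of biogenesis regulators, with 15 of 18 above 0 (9860 of 21239 over all detected probes) and 0 past 1.5-fold. It was -0.03 for 18 probes of citrate cycle enzymes, with 2 higher and 0 lower, and 0.01 for 20 probes of glycolysis enzymes, with 1 higher and 0 lower. In the order named, 1.69%, 0%, 11.1% and 5.00% of the probes were past 1.5-fold, beside 8.92% of all detected probes. For siGRB2 minus miControl the medians of these lists were 0.02, 0.02, -0.02 and 0.21. Glycolysis enzymes had 17 of 20 probes above 0 (11822 of 21239 over all) and 1 past 1.5-fold (5.00%, beside 5.81% of all detected probes). For siGRB2 minus siControl they were -0.07, 0.08, 0.12 and 0.26. Among the regulators NRF1 gave 0.16 with miR-376c, the mitochondrial transcription factor TFAM gave 0.43 and 0.06 on 2 probes, and PPARGC1A was below background on all arrays. Other housekeeping sets gave medians of 0.11 (149 probes of cytosolic ribosomal proteins), 0.18 (45 of proteasome subunits) and 0.07 (87 of mitochondrial ribosomal proteins) with miR-376c, where the chain gave -0.02. For siGRB2 minus siControl they gave 0.00, -0.16 and 0.02, where the chain gave -0.15, and for siGRB2 minus miControl 0.13, 0.01 and 0.01, where the chain gave 0.05. These are descriptions of 4 arrays with no test between the lists.

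The promoters of the members were searched for letters bound by known regulators of respiratory genes, since such genes are often described as moving together. RefSeq (GRCh38.p14) gave a window of 300 bases, 250 before the start and 50 after it, for 73 of the 89 genes, and not for the other 16, among them ATP5F1B, ATP5F1D, COX6C, CYC1, NDUFB5 and SDHC. The NRF1 letters GCGCATGC, read on both strands (GCATGCGC on the other), were in 14 of 73 member windows (19.2%), beside 3.27% of all 27305 windows and 4.26% of the 15843 of protein-coding genes. In 4 members (ATP5F1C, NDUFA8, NDUFB4 and SDHD) matches on both strands overlapped. The ETS letters CCGGAAGT were in 10 (13.7%), beside 4.44% and 6.19%, the YY1 letters AAGATGGC in 11 (15.1%), beside 3.03% and 3.91%, and the ERR letters CAAGGTCA in 4 (5.48%), beside 1.33% and 1.03%. A match is a string of letters, not a shown binding site.

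Stretches around the NRF1 letters are shown for NDUFA6, the member furthest from its control with miR-376c, for CYCS, whose probes had the highest median of any complex or carrier, and for SDHB, ATP5PF and NDUFS7 as genes of other complexes or roles. Each is 48 bases, 5′ to 3′ on the strand of the gene, wholly before the start, with the 8 matching letters in capitals.
CYCS (chr7:25125402-25125449, minus strand): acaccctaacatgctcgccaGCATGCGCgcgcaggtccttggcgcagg
NDUFA6 (chr22:42090911-42090958, minus strand): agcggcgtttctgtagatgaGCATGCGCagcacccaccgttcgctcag
SDHB (chr1:17054205-17054252, minus strand): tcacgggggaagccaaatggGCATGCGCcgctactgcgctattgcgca
ATP5PF (chr21:25735147-25735194, minus strand): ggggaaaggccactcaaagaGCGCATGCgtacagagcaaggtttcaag
NDUFS7 (chr19:1383814-1383861, plus strand): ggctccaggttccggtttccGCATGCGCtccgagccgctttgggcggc

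For miR-376c minus miControl these 5 genes ran from 0.64 for NDUFA6 through 0.19 for ATP5PF, 0.16 for SDHB and 0.12 for NDUFS7, with CYCS at 0.06 to 0.45 on its probes. Of the other genes with NRF1 letters, ATP5ME (-0.16), ATP5F1C (-0.11), COX5B (-0.08), NDUFA8 (-0.08), COX6A1 (-0.06) and NDUFB4 (-0.05) were below 0. ATP5MC2 (0.21), SDHD (0.07 to 0.12) and NDUFS6 (0.09) were above 0, so the printed genes do not stand for all 14. The 18 detected probes of the 14 genes with NRF1 letters had a median of 0.09, and the 67 probes of the 55 genes without them -0.04. For siGRB2 minus miControl the medians were 0.06 and 0.03, and for siGRB2 minus siControl -0.21 and -0.11. The gap with miR-376c was not particular to NRF1. There the medians with and without the letters were 0.12 and -0.04 for YY1, 0.08 and -0.03 for ERR, and -0.04 and -0.02 for ETS. NDUFA6 and CYCS are among the 14 genes with NRF1 letters, so their median of 0.09 contains the values the stretches were chosen by.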

How the data were processed

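Total RNA of 4 HuCCT1 cultures was labelled with Cy3 and hybridised to 4 arrays of 1 slide, read in 1 scan, so there is no batch term. The authors deposited, for each array, processed spot intensities, median spot and background intensities and flags from Agilent Feature Extraction (version 10.7 in the submitters' processing notes). They also deposited a table of log2 values shifted to the 75th percentile. For 99.5% of probes, a column of this table differed from the log2 scanner intensity, averaged over spots, by 1 constant per array (tolerance 0.01). Column medians were -3.36 (siGRB2), -3.59 (siControl), -3.44 (miR-376c) and -3.39 (miControl).

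Here, log2 processed intensities were shifted to each array's 75th percentile over non-control spots (a signal of 1719 to 2689), after removal of 289 to 329 outlier-flagged spots, and averaged per probe. No spot was saturated. A probe was detected when over 0.5 of its spots were well above background. Lower bounds use the lowest detected signal, 21.2 to 24.4. Precision is limited by having 1 array per condition. Genes were named through RefSeq accessions (GRCh38.p14, for names and promoters only, as the scanner files name another build). Fold limits were 1.5 and 2.

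The members, gene lists and rules were chosen with earlier results of these data known. Genes were named when they were paralogs of 1 subunit, past 1.5-fold, the extremes of a complex, undetected, spotted several times, read by several probes, or of complex II, CYC1, CYCS or GRB2. NDUFS8, NDUFV2, NDUFB9, TFAM, NRF1, the remaining ATP synthase subunits and the genes of the printed promoters were named after their values were seen. Alternatives were other scalings, normexp (offset 50, on median intensities), the deposited values, other detection rules, 1 value per gene and other controls. Python 3.11.15, numpy 2.4.6, pandas 2.3.3, R 4.3.3 and limma 3.58.1 were used. The calculation was tested on simulated data, in which a control array was set against itself with known fold changes and small noise between spots. Such data hold no spread between cultures, so the test covers the arithmetic only. The values of 1 member gene are not reported here singly.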

Additional observations from a re-analysis of the deposited data

Results flagged for a closer look

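NDUFA6 stood apart because its differences from each reagent's own control ran opposite ways past 1.5-fold: 0.64 for miR-376c minus miControl and -0.62 for siGRB2 minus siControl, with 1 array each, so the difference between the reagents was not tested. The treated arrays were close, at 2.56 and 2.52, and the controls far apart, at 1.92 (miControl) and 3.14 (siControl).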

How the results depend on the processing

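A paired fit and leaving out a replicate both need several arrays per condition. No paired analysis was possible because every array is the only 1 of its condition. A value counted as moved when it shifted by more than 0.0853 log2, or, for a count, by over 1.5 times. This limit is the SD of a difference between single spots, worked out from the spread between spots, and not that of a median over many probes. A value counted as reversed only when both values were past this limit with opposite signs, so smaller changes of sign are not among the reversals. Of the main values 148 stayed and 60 moved, and of the others 327 stayed, 93 moved and 2 reversed. The cause of a move was not tested. Spots measure the scanner and the array only, so none of this covers the spread between cultures.

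For siGRB2 minus siControl the member median relative to all probes (-0.31) was -0.066 with quantile normalization, -0.037 with normexp, -0.18 with no detection filter, -0.11 against bright probes, 0.013 against miControl and -0.13 against the mean of both controls. In the same order complex I gave -0.048, -0.015, -0.19, -0.10, 0.010 and -0.13. Complex II gave -0.084, -0.045, -0.20, -0.12, -0.046 and -0.11, and -0.10 with 1 mean per gene. Complex IV gave -0.10, -0.057, -0.16, -0.093, 0.042 and -0.16, and complex V -0.049, -0.030, -0.13, -0.11, 0.052 and -0.086. Complex III gave 0.012 with quantile normalization, 0.026 with normexp, -0.079 against bright probes, -0.031 against miControl and -0.17 against both controls. Members past 1.5-fold (23, or 22.1%) numbered 2 (1.92%) against miControl and 4 (3.85%) against both controls. The shares over all probes fell as well, from 32.1% to 5.81% and 10.25%. Members past 2-fold (5) numbered 8 with a median shift, 3 with quantile normalization, 2 with normexp, 3 in the deposited values, 3 with 1 mean per gene, and 1 against miControl or both controls. The 2-fold shares over all probes were not counted in the other scalings, so these counts cannot be read as particular to the chain.

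For miR-376c minus miControl (0.01 relative to all probes), the value against siControl was -0.21, with complex I at -0.21, II at -0.16, III at -0.33, IV at -0.24 and V at -0.056. Complex III was -0.018 with 1 mean per gene and -0.027 with the single best probe. Members past 1.5-fold (1) numbered 3 with a median shift, 2 in the deposited values, 2 with no filter, 22 against siControl and 4 against both controls, and past 2-fold (0) 1 with no filter and 2 against siControl. Over all probes the 1.5-fold share (8.92%) was 8.88% with a median shift, 8.55% in the deposited values and 14.6% with no filter. It was 26.1% against siControl and 8.52% against both controls, and the 2-fold share against siControl was 5.87%. Complex III in siControl minus miControl reversed from 0.16 to -0.13 with quantile normalization and -0.14 with normexp. A median shift moved the median of all probes from 0.15 to -0.13 for siGRB2 minus siControl.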
